A study of Mus musculus with 24 samples.

Results

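Expression of 10 transcription factor genes of 3 families was followed through blood monocytes of wild type and Notch2-deficient mice. The genes were the Nr4a nuclear receptors Nr4a1, Nr4a2 and Nr4a3, the C/EBP factors Cebpa, Cebpb and Cebpd, and the Krüppel-like factors Klf2, Klf4, Klf6 and Klf13. They were taken by name from a list drawn up with earlier results of these data known, and all 10 were found among the 53715 genes of the table.

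In mice, classic Ly6Chi monocytes leave the bone marrow and can convert in the blood to Ly6Clo monocytes, which patrol the inside of blood vessels. Nr4a1 is an orphan nuclear receptor that Ly6Clo monocytes need, and C/EBPβ is known as a factor for their survival and for Nr4a1 expression. C/EBPα directs the earlier myeloid precursors, and Klf2 and Klf4 are zinc finger factors known in monocyte differentiation and in the control of inflammatory genes. Notch2 is a receptor that responds to ligands on endothelial cells and has been tied to the same conversion.

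RNA was sequenced from monocytes sorted from the peripheral blood of C57BL/6 mice aged 8 to 10 weeks, in 6 groups of 4 libraries. The wild type mice (wt), described as littermates, were compared with N2ΔMy mice, in which Lyz2-Cre deletes floxed Notch2 in myeloid cells, and all carried a green fluorescent reporter in Cx3cr1. Ly6Chi monocytes came from mice given Sham cream or Aldara cream (50 mg per day, 5% imiquimod, IMQ), and Ly6Clo monocytes came only from IMQ-treated mice. IMQ activates the receptor TLR7 and was put on depilated skin for 4 to 5 days before sorting on day 5, and the methods call the control animals untreated. Whether the wt mice carried Cre is not given in the sources used here, and Lyz2-Cre acts in other myeloid cells too. The labels call the 4 libraries of a group biological replicates without naming the animals, so p-values measure the spread between these libraries.

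Values are the authors' normalized counts, and the reads behind them ranged from 9522646 to 19759585 per library as inferred from the spacing of low values. Replicates 1 and 2 belonged to a first series of library codes and replicates 3 and 4 to a second. Notch2 was lower in N2ΔMy than in wt libraries in each setting, at 9368 to 11518 against 16037 to 20005 in Ly6Clo IMQ, 7240 to 8311 against 12656 to 14982 in Ly6Chi IMQ and 8603 to 10165 against 13799 to 16214 in Ly6Chi Sham. A summed list of 5 Ly6Chi monocyte genes (Ly6c2, Ccr2, Vcan, F13a1 and Mmp8) lay between 51935 and 79113 in the Ly6Chi libraries and between 499 and 9955 in the Ly6Clo libraries. A list of 8 Ly6Clo monocyte genes ran the other way, from 22858 to 45052 in Ly6Chi and from 82469 to 155030 in Ly6Clo libraries. Of the lists for other cells, 5 T cell genes summed to at most 6 and 5 NK cell genes to at most 126 in any library, 4 B cell genes to between 807 and 3872, and 4 erythroid genes to between 0 and 1420. The B cell sum was mostly Ighm, at 719 to 3756, while Ms4a1 was at 3 or less. Since RNA came from sorted pools, fewer cells of a type and less RNA per cell cannot be told apart.

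The promoters of 5 members are shown to set 4 genes that results below turn on beside Nr4a2, one of the 2 relatives of Nr4a1 that hold as many copies of a short response element but hardly any reads. They are the 250 bases before the RefSeq start site (GRCm38.p6), on the gene's own strand, and capitals mark the cyclic AMP response element core TGACG or its reverse complement CGTCA.
Nr4a1 (chr15:101266596-101266845, plus strand): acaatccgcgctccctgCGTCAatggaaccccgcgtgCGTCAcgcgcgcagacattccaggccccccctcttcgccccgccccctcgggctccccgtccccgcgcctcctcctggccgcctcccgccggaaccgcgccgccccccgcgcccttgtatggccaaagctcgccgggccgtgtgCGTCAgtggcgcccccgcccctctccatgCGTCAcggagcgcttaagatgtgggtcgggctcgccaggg
Nr4a2 (chr2:57124004-57124253, minus strand): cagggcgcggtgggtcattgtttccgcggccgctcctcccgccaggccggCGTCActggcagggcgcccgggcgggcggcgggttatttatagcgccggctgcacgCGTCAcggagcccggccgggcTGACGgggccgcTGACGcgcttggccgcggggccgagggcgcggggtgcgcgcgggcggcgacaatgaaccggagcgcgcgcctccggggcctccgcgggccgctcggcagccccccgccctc
Cebpb (chr2:167688665-167688914, plus strand): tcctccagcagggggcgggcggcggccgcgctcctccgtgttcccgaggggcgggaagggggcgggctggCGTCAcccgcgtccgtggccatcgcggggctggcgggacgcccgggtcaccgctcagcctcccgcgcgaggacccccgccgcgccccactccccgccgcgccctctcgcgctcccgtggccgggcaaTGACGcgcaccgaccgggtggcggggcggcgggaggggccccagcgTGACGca
Klf4 (chr4:55532476-55532725, minus strand): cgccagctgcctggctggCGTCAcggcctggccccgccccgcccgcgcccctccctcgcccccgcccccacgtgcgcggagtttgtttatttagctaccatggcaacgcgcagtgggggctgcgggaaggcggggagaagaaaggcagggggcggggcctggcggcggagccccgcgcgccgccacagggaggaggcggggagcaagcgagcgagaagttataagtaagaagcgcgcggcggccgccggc
Cebpa (chr7:35119043-35119292, plus strand): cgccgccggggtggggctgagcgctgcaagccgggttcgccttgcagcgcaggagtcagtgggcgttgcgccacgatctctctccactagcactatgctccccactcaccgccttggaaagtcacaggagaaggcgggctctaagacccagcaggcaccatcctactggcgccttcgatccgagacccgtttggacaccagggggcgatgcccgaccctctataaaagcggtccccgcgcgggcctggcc
None of these windows overlaps an annotated exon, and the Nr4a1 window lies inside the gene's full span (chromosome 15, 101254269 to 101274795), whose longer transcripts start upstream.

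RefSeq promoters were matched for 9 of the 10 members, Cebpd being the other. The core was found 4 times each in the Nr4a1, Nr4a2 and Nr4a3 windows, 3 times in Cebpb and 1 time each in Klf2, Klf4 and Klf13, and it was in none of the windows of Cebpa and Klf6. At least 1 match stood in 17.8% of all promoter windows of this length. The GC box GGGCGG, counted on both strands, was in 8 of the 9 windows and in 32.7% of all. Neither the C/EBP motif TTGCNNAA nor the RBPJ motif TGGGAA was found in any of the 9, against 9.56% and 21.6% of all windows. A match is a description of letters, and no match says only that these letters are not in the window.

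**Figure D1:**
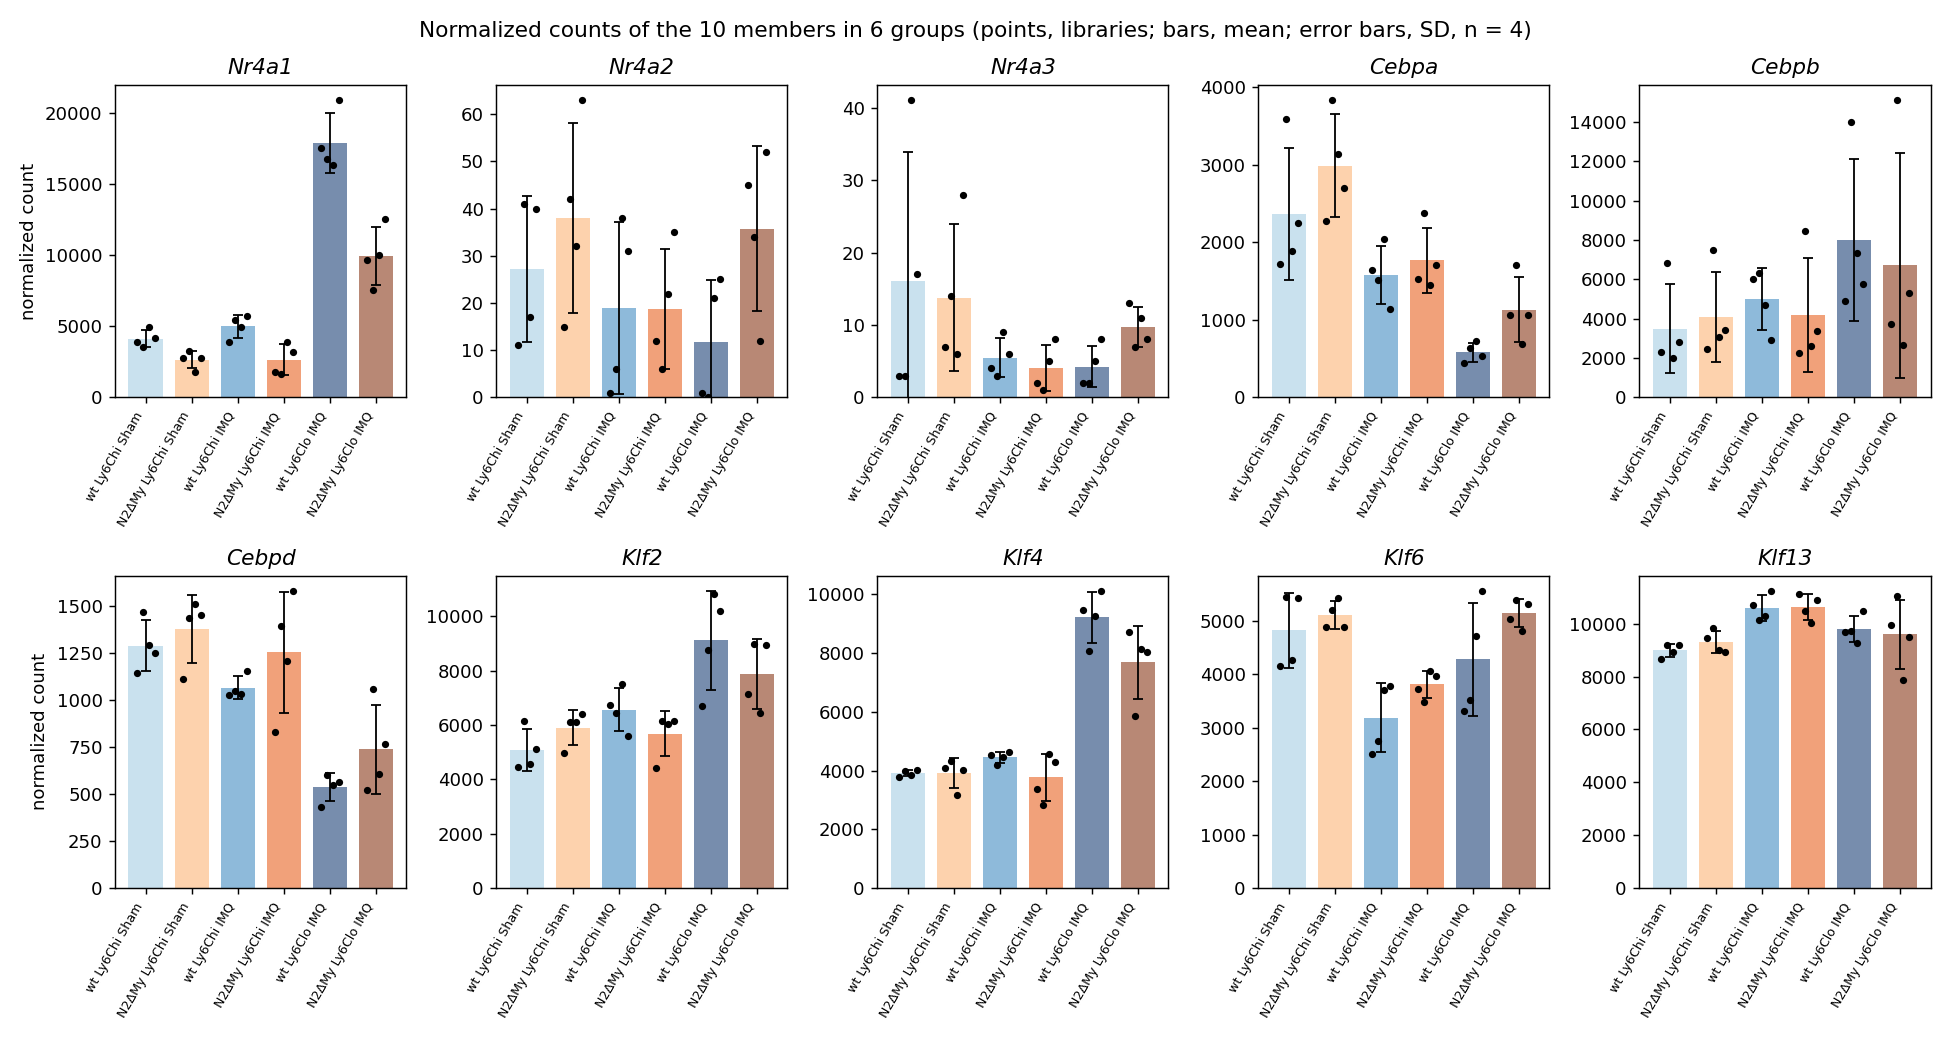
Normalized counts (vertical axes, linear from 0) of the 10 genes in the 6 groups. Points are libraries, bars the means and error bars the SD (n = 4), cut at 0 where they would pass below it. Nr4a1 and Klf4 stand highest in the Ly6Clo groups, Cebpa and Cebpd lowest there, and Nr4a2 and Nr4a3 never exceed 63 and 41.

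Per kilobase of transcript the members differed in level, and those of the C/EBP and Klf families are a chosen part of each family. In wt Ly6Clo monocytes, Cebpb reached 5321 ± 2749, Nr4a1 5098 ± 596 and Klf2 4941 ± 987 normalized counts per kb (SD, n = 4). Klf4 followed at 3026 ± 283, Klf13 at 1301 ± 67.4 and Klf6 at 975 ± 241, and Cebpa and Cebpd stood at 221 ± 46.0 and 143 ± 19.5. The 3 highest genes did not differ beyond their spread. The Nr4a family was nearly all Nr4a1, which made up at least 97.5% of its per-kb total in each of the 24 libraries.

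Nr4a2 and Nr4a3, the relatives that neurons and activated immune cells use, were hardly detected. Nr4a2 lay between 0 and 63 normalized counts, and it reached the filter value of 50 in 2 libraries. Nr4a3 lay between 1 and 41 and did not reach the filter, so 9 of the 10 members were tested. In Ly6Clo monocytes Nr4a2 stood at 12 to 52 in N2ΔMy and 0 to 25 in wt, and Nr4a3 at 7 to 13 and 2 to 8, with overlapping groups.

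Members were tested with limma on log2(value + 1), and passed where the adjusted p was at most 0.05 and the log2 difference at least 0.6 in size. Benjamini-Hochberg adjustment ran over all 11230 genes that reached 50 in at least 1 library. A log2 difference of 1 on this scale is close to a doubling. Because libraries of the same replicate number deviated together, a second fit held the number as a block, and its value is given where it changed a call.

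The first question was how the 10 genes differ between the 2 monocyte subsets of IMQ-treated mice. In wt mice Nr4a1 and Klf4 were higher and Cebpa and Cebpd lower in Ly6Clo monocytes. The 4 genes that passed were thus 2 of 9 tested in each direction, where 11.9% of all genes passed as higher and 12.7% as lower. The libraries of the 2 subsets did not overlap for these 4 genes, against 35.4% of all genes.

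Nr4a1 stood at 17542, 16752, 16330 and 20934 in the wt Ly6Clo libraries and at 3858, 5445, 4936 and 5704 in wt Ly6Chi. Every Ly6Clo library lay far above every Ly6Chi library, at a mean ratio of 3.59 (log2 difference 1.85 ± 0.13 SE, limma adjusted p = 2.84e-06). In N2ΔMy mice the Ly6Clo libraries held 9659, 7536, 10007 and 12542 and the Ly6Chi libraries 1752, 1675, 3868 and 3220. The groups again did not overlap, at a ratio of 3.78 (1.99 ± 0.26, limma adjusted p = 0.000271). The step between subsets was therefore present in both genotypes, and its difference between them was 0.14 ± 0.33 (limma adjusted p = 0.999).

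Klf4, a factor required in myeloid differentiation toward monocytes, followed the same pattern with a smaller step. The wt Ly6Clo libraries held 9462, 8060, 9251 and 10134 and the wt Ly6Chi libraries 4525, 4190, 4467 and 4646. The groups did not overlap, and the mean was 2.07 times as high in Ly6Clo (log2 difference 1.05 ± 0.09, limma adjusted p = 1.07e-05). In N2ΔMy mice the values were 8711, 5865, 8149 and 8037 against 3373, 2845, 4559 and 4303, a ratio of 2.04 (1.04 ± 0.17, limma adjusted p = 0.00106). The genotype by subset difference of Klf4 was -0.01 ± 0.20 (limma adjusted p = 0.999).

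Klf2, best known for quiescence and trafficking of blood cells, was 1.39 times as high in Ly6Clo of both genotypes. Its differences of 0.46 ± 0.15 in wt (limma adjusted p = 0.036) and 0.47 ± 0.15 in N2ΔMy (limma adjusted p = 0.037) lay under the fold needed to pass. It passed in the second library series alone in wt (0.70, adjusted p = 0.0259) and in the first alone in N2ΔMy (0.62, adjusted p = 0.0373). Klf6, an early response Krüppel-like factor, differed by 0.41 ± 0.19 in wt and 0.43 ± 0.09 in N2ΔMy (limma adjusted p = 0.11 and 0.00457), and neither reached that fold. Klf13, a factor known from lymphocytes, was 1.08 times as high in Ly6Chi as in Ly6Clo of wt mice, with overlapping groups.

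Cebpa moved opposite to Nr4a1. The wt Ly6Clo libraries held 446, 635, 724 and 530 and the wt Ly6Chi libraries 1648, 1509, 2042 and 1135. The groups did not overlap, and Ly6Chi was 2.71 times as high (log2 difference -1.43 ± 0.19, limma adjusted p = 0.000188). In N2ΔMy mice the values were 1066, 1703, 693 and 1069 in Ly6Clo and 1531, 2379, 1450 and 1708 in Ly6Chi. These overlapped, and the difference of -0.69 ± 0.24 missed the threshold (limma adjusted p = 0.0607) but passed with the replicate block (adjusted p = 0.000601, 10.2% of genes lower in that fit). Each of the 4 same-numbered pairs was lower in Ly6Clo.

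Cebpd, a factor that cytokines induce in myeloid cells, was also lower in Ly6Clo monocytes. It held 433, 602, 550 and 565 in wt Ly6Clo and 1026, 1049, 1029 and 1154 in wt Ly6Chi (log2 difference -0.99 ± 0.12, limma adjusted p = 8.01e-05), with no overlap. In N2ΔMy it held 522, 1058, 605 and 763 against 827, 1392, 1207 and 1580, which overlapped (-0.78 ± 0.24, limma adjusted p = 0.0347). That call was lost when any of 6 libraries was left out (Ly6Chi replicates 2, 3 and 4 and Ly6Clo replicates 1, 3 and 4), with log2 differences from -0.81 to -0.63 in those fits. Cebpd shares 658 exonic bases with Spidr on the opposite strand, which had a median of 432.5 normalized counts, and the strand setting of the counting is not given in the sources used here.

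In N2ΔMy the members that passed between subsets were Nr4a1 and Klf4 as higher, where 9.01% of genes were, and Cebpd as lower, where 8.38% were. The libraries did not overlap for 4 members (Nr4a1, Klf2, Klf4 and Klf6), against 27.8% of all genes. Of 6 tested macrophage genes 5 were higher in these Ly6Clo libraries (median 3.79), against 2 of 6 in wt (median 0.96). Of 4 dendritic cell genes 2 were higher (median 2.90) and of 3 neutrophil genes 2 were lower (median -3.64), while in wt 1 dendritic cell gene was higher and 1 lower and 2 neutrophil genes were lower. The 1 tested NK cell gene was higher in N2ΔMy (3.35). Of 4 endothelial genes the 1 tested, Pecam1, was higher in Ly6Clo by 5.80 in wt and 5.43 in N2ΔMy, while Cdh5, Kdr and Tek stood at 19 or less in each Ly6Clo library. The part of these lists in the member differences between subsets was not tested.

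Leaving aside Nr4a2 and Nr4a3, which were hardly detected, Cebpb was the most variable member. The spread of Cebpb followed the replicate number. Replicate 2 was the highest library in all 6 groups, at 1.39 to 3.87 times the mean of the other 3. In wt Ly6Clo the 4 libraries held 4890, 14016, 7329 and 5774 and in wt Ly6Chi IMQ 6024, 6324, 4704 and 2888. In N2ΔMy Ly6Clo they held 3741, 15120, 2674 and 5302 and in N2ΔMy Ly6Chi IMQ 2272, 8468, 2623 and 3357. The groups overlapped throughout, and the subset difference was 0.62 ± 0.32 in wt (limma adjusted p = 0.163) and 0.56 ± 0.51 in N2ΔMy (limma adjusted p = 0.469).

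With the replicate block the wt difference passed (adjusted p = 0.00728, where 13.4% of genes were higher), and without replicate 2 in that fit it was 0.45 with an adjusted p of 0.0615. The second library series alone also passed in wt (0.82, adjusted p = 0.0481), and the fit with series as a covariate did not (adjusted p = 0.0686). In N2ΔMy the block gave an adjusted p of 0.00549 at the same 0.56, under the fold needed. Cebpa was highest in replicate 2 in 4 of the 6 groups and Cebpd in 3. In the same libraries a list of 16 immediate early and heat shock genes, which handling of cells can raise, summed to 0.585 to 1.45 times the mean of the others and was above it in 2 of 6 groups. That list had its own order by replicate number, with medians over the 6 groups of 0.667, 0.739 and 1.44 times the mean of the other 3 libraries for replicates 1, 2 and 4. Replicate 1 was above the others in 0 of 6 groups, replicate 3 in 4 and replicate 4 in 6. For replicates 1 to 4 in turn Nr4a2 had medians of 0.350, 0.615, 1.02 and 2.04 and Nr4a3 of 0.515, 0.523, 1.24 and 1.68, and Nr4a1 was highest in replicate 4 in 3 of the 6 groups. The part of library handling in the spread of Cebpb and the Nr4a genes was not tested. Cebpb shares 312 exonic bases with Tmem189 on the opposite strand, a gene at 661 at most.

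**Figure D2:**
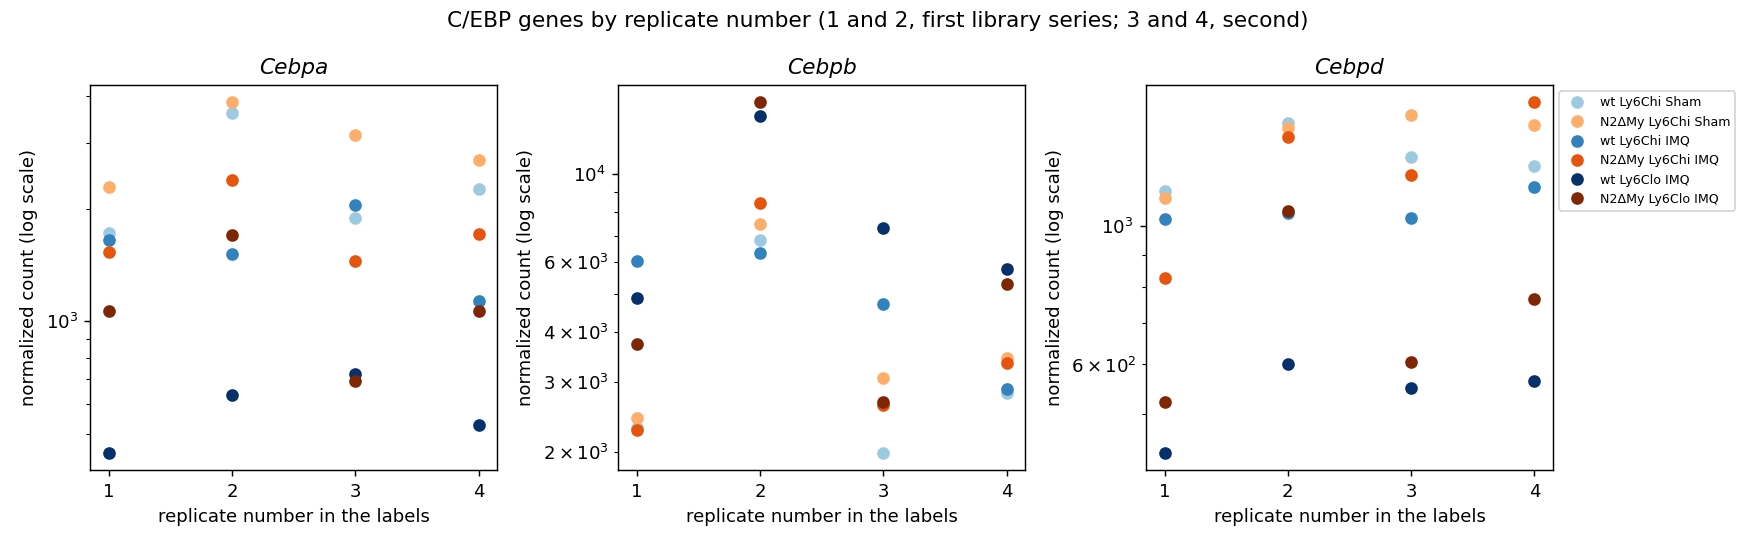
Normalized counts (vertical axes, log scale) of Cebpa, Cebpb and Cebpd by replicate number from the labels (horizontal axis). Points are libraries, colours the 6 groups, and replicates 1 and 2 come from the first library series. Cebpb stands highest at replicate 2 in every group, while Cebpd does so in 3.

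The balance among the 3 C/EBP members was described by shares and ratios, and no ratio test passed after adjustment. Even the smallest p that 8 libraries allow came to 0.0857 after adjustment over the 21 ratio tests, so these tests could not decide. Per kb, Cebpa made up 14.7% ± 3.28 (SD, n = 4) of the 3 members in wt Ly6Chi IMQ and 4.31% ± 1.24 in wt Ly6Clo, and Cebpb 78.0% ± 5.26 and 92.9% ± 2.01. The log2 ratio of Cebpb to Cebpa was 1.62 ± 0.41 and 3.67 ± 0.53 in those groups, with no overlap (two-sided exact permutation p = 0.0286, the smallest that 8 libraries allow, 0.0857 adjusted over 21 ratio tests). In N2ΔMy the ratio was 2.30 ± 0.60 in Ly6Clo, 1.25 above that in Ly6Chi IMQ (exact permutation p = 0.0571, adjusted 0.150). Each N2ΔMy Ly6Clo library lay below each wt Ly6Clo library (exact permutation p = 0.0286, adjusted 0.0857). In wt Ly6Chi the ratio was also higher after IMQ, at 1.62 ± 0.41 against 0.43 ± 0.36 in Sham, with no overlap (exact permutation p = 0.0286, adjusted 0.0857). In N2ΔMy Ly6Chi it was 0.72 higher after IMQ (exact permutation p = 0.0857, adjusted 0.180). The log2 ratio of Klf2 to Klf4 differed by -0.59 between the wt subsets (exact permutation p = 0.0286, adjusted 0.0857). That of Nr4a1 to Nr4a3 differed by 2.23 between the wt subsets and by -2.02 between genotypes in Ly6Clo. After IMQ in N2ΔMy it differed by 1.48, and Nr4a3 was at 41 or less throughout. Each of these had an exact permutation p of 0.0286 (adjusted 0.0857), and the other comparisons of this ratio had at least 0.0857 before adjustment.

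**Figure D3:**
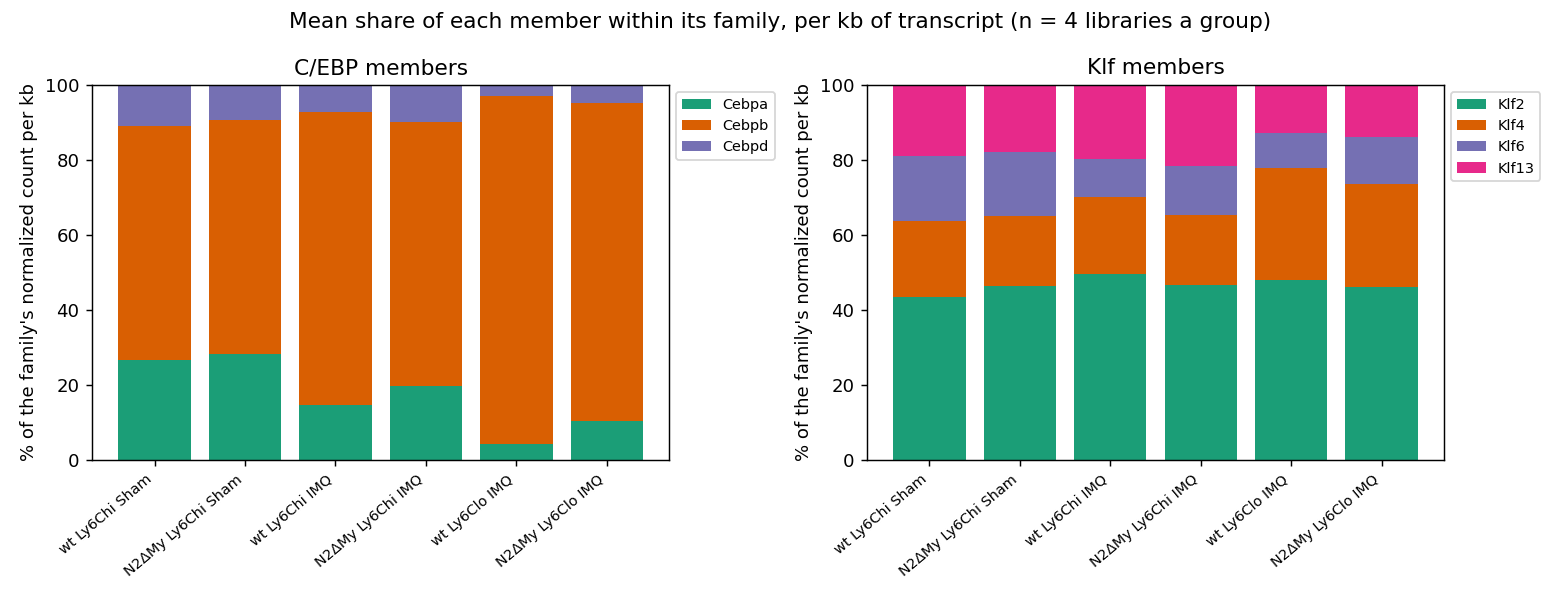
Mean share (vertical axis, percent of the per-kb total of the members shown) of each C/EBP and Klf member in the 6 groups (n = 4 libraries each). Cebpb takes 62.3% to 92.9% of the C/EBP members shown and Klf2 43.3% to 49.7% of the Klf members shown. The Klf4 share is larger in the Ly6Clo groups, and other genes of these families are left out.

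The second question was what loss of Notch2 changed in each monocyte population. In Ly6Clo monocytes Nr4a1 was the 1 member of 9 that passed, as lower in N2ΔMy, where 1.67% of all genes were. The mean was 9936 ± 2052 against 17890 ± 2091 (SD, n = 4 each), and every N2ΔMy library lay below every wt library (log2 difference -0.86 ± 0.15, limma adjusted p = 0.00704). It was also the 1 member of 10 without overlap, against 12.8% of genes. Within the library series the differences were -1.01 in the first and -0.72 in the second, and the second alone missed the threshold with 4 libraries (adjusted p = 0.083).

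Cebpa was the next member, at 1.94 times the wt level in N2ΔMy Ly6Clo (log2 difference 0.91 ± 0.25). It missed the threshold (limma adjusted p = 0.0559) and passed with the replicate block (adjusted p = 0.009, where 4.92% of genes were higher). The libraries overlapped, since N2ΔMy replicate 3 at 693 lay below wt replicate 3 at 724, and the difference was 1.34 in the first series and 0.47 in the second. Without that N2ΔMy library the difference was 1.12 (adjusted p = 0.0175). The genotype by subset difference of Cebpa was 0.74 ± 0.34 (limma adjusted p = 0.563, and 0.234 with the block).

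The other 7 tested members did not pass in this comparison. Nr4a2 had the largest difference of the members at very low values, 45, 34, 12 and 52 in N2ΔMy against 1, 0, 21 and 25 in wt (2.48 ± 1.04, limma adjusted p = 0.219). The difference was 4.83 in the first library series, which passed alone (adjusted p = 0.00727), and 0.13 in the second. Klf4 was at 7690 ± 1252 in N2ΔMy and 9227 ± 864 in wt Ly6Clo, with each same-numbered pair lower in N2ΔMy but overlapping groups (-0.27 ± 0.13, limma adjusted p = 0.291). Cebpd was at 737 ± 236 and 538 ± 73.0, higher in N2ΔMy in 4 of 4 pairs (0.41 ± 0.20, limma adjusted p = 0.306). Cebpb, Klf2, Klf6 and Klf13 differed by -0.46, -0.20, 0.30 and -0.04, and Klf6 passed in the first series alone (0.61, adjusted p = 0.0152). The immediate early and heat shock genes had a median difference of the same sign as Nr4a2 and Klf6, 0.28 over 15 tested genes. Of these 1 passed as higher (Atf3) and 0 as lower, and with the block 3 and 0, and the list summed to a mean of 25318 in N2ΔMy and 20989 in wt, with overlapping libraries. The part of that list in the Nr4a2 and Klf6 differences was not tested.

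Marker lists moved along with these differences. The 5 Ly6Chi monocyte genes summed to 6973 to 9955 in the N2ΔMy Ly6Clo libraries against 499 to 1706 in wt, and each of the 5 was detected in both groups. The 8 Ly6Clo monocyte genes summed to 82469 to 94880 against 135153 to 155030. Singly they went both ways, with 3 lower (5 with the block), 1 higher and a median of -0.67, and the higher one was Cd36, a scavenger receptor, at a mean of 2910 against 911. A list of 8 macrophage genes summed to 9367 to 14267 against 4830 to 6838. The means of its complement genes C1qa, C1qb and C1qc were 250, 1023 and 424 in N2ΔMy and 14.2, 71.8 and 23.8 in wt, while Vcam1 and Timd4 were at 4 or less in each library. Pecam1 was lower in N2ΔMy (-0.76), and with the block alone the 1 tested NK cell gene (3.38) and 1 of 4 dendritic cell genes (list median 1.11) were higher. The part of these cells or programs in the lower Nr4a1 and higher Cebpa was not tested.

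In Ly6Chi monocytes of IMQ-treated mice no member passed in the fit without block or series covariate, where 0.0267% of genes did so and 679 had an unadjusted p under 0.05. Nr4a1 held 1752, 1675, 3868 and 3220 in N2ΔMy against 3858, 5445, 4936 and 5704 in wt, which overlapped in that N2ΔMy replicate 3 lay above wt replicate 1. The difference of -1.004 ± 0.27 had a limma adjusted p of 0.518, and with the replicate block an adjusted p of 0.0148, where 0.267% of genes were lower. With the library series as a covariate the limma adjusted p was 0.0192, which also passed. In this comparison 2 of the 4 same-numbered pairs, replicates 2 and 3, correlated less (r of 0.452 and 0.387) than the same N2ΔMy libraries did with a wt library of another number (0.586 and 0.488). The series differed in size, at -1.42 in the first and -0.59 in the second, and each same-numbered pair was lower in N2ΔMy. The 8 Ly6Clo monocyte genes summed to 22944 to 33283 in these N2ΔMy libraries and to 30036 to 45052 in wt, and their part in the difference was not tested. Libraries of the 2 groups did not overlap for 0 of the 10 members, against 3.84% of genes.

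In Ly6Chi monocytes of Sham mice no member passed either, where 0.0178% of genes did and 585 had an unadjusted p under 0.05. Nr4a1 held 2762, 3270, 1802 and 2801 in N2ΔMy against 3877, 3548, 4923 and 4175 in wt, without overlap, as for 1 of 10 members and 3.15% of genes. The difference was -0.66 ± 0.17, with a limma adjusted p of 0.879 and 0.247 with the block. An exact permutation test of this gene alone gave p = 0.0286 (two-sided, unadjusted), the smallest possible. Any 2 groups of 4 libraries without overlap give this p, so it adds nothing to the lack of overlap. The 8 Ly6Clo monocyte genes summed to 22858 to 28755 in N2ΔMy and 31125 to 34444 in wt, without overlap, and their part was not tested either. Nr4a1 was thus lower in N2ΔMy in all 12 same-numbered pairs over the 3 populations. Whether the IMQ libraries of the 2 subsets share animals is not given, so the 12 pairs cannot be counted as independent.

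The genotype difference of Nr4a1 was compared between populations. It was -0.86 in Ly6Clo and -1.004 in Ly6Chi of IMQ mice, and the interaction of 0.14 ± 0.33 did not pass, as for all 9 members, where 1.03% of genes did and 936 had an unadjusted p under 0.05. Between Ly6Chi IMQ and Sham the interaction was -0.35 ± 0.34 (limma adjusted p = 1), and 0 of 9 members and 0% of genes passed, with 177 genes at an unadjusted p under 0.05. Klf2 had the lowest unadjusted p of the members there (-0.44 ± 0.18, limma adjusted p = 1).

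The order of the groups by Nr4a1 level ran from wt Ly6Clo to N2ΔMy Ly6Clo, wt Ly6Chi IMQ, wt Ly6Chi Sham, N2ΔMy Ly6Chi Sham and N2ΔMy Ly6Chi IMQ. The highest mean was 6.81 times the lowest. Neighbours did not overlap in this order except wt Ly6Chi IMQ with Sham and N2ΔMy Ly6Chi Sham with IMQ. For Klf13 the same ratio was 1.18, the smallest of the 10 members, and for Cebpa it was 5.12.

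**Figure D4:**
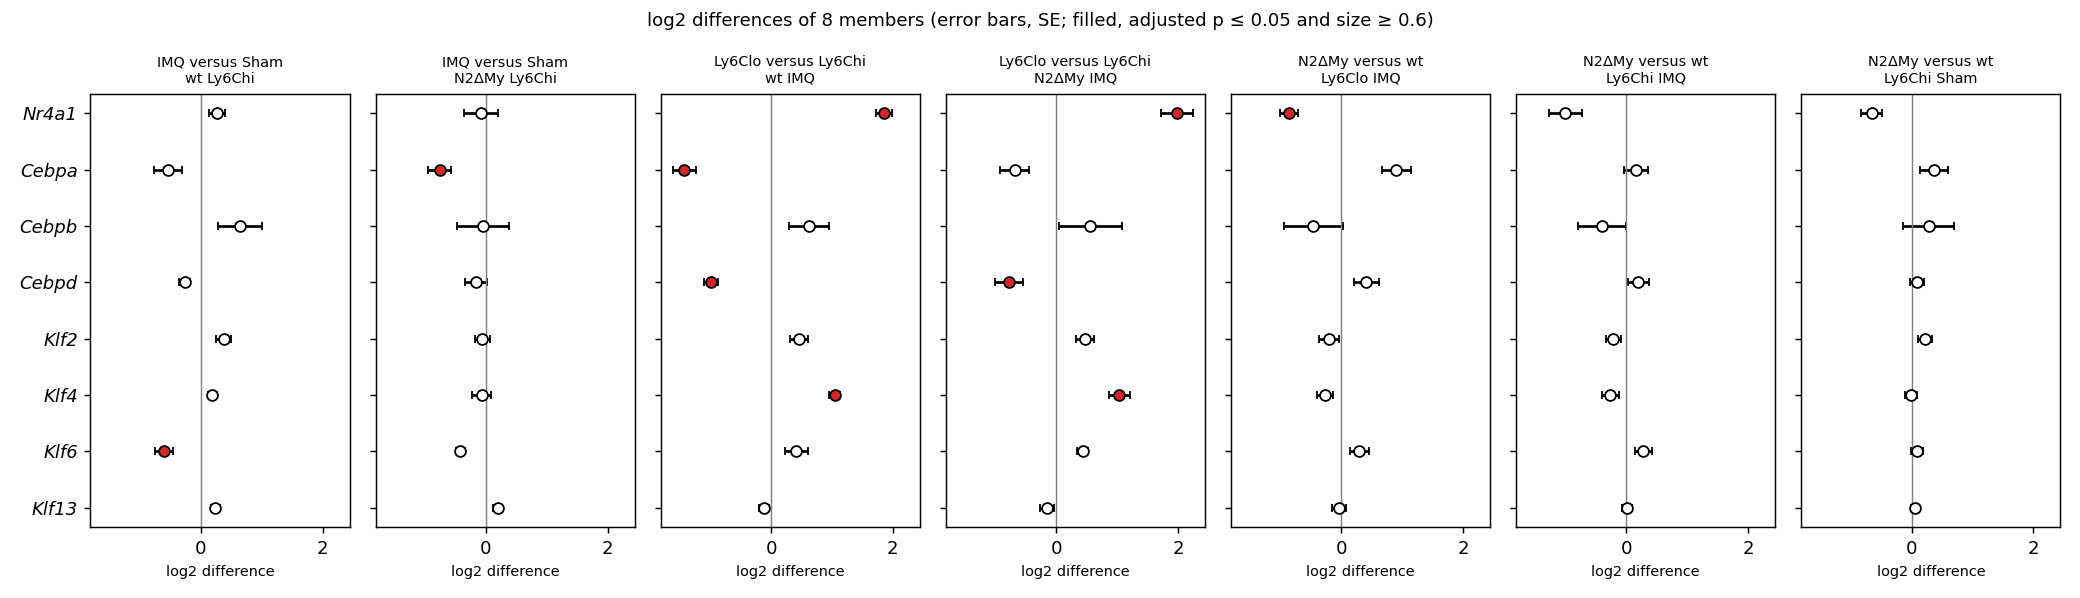
log2 differences (horizontal axes) of the 8 members that reached 50 normalized counts in all 24 libraries, for 7 comparisons. Points are limma estimates, error bars the SE, and filled points are those that passed the test. Nr4a1 lies to the right between subsets, at 1.85 and 1.99, and to the left between genotypes, from -1.004 to -0.66.

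The third question was what IMQ changed in Ly6Chi monocytes. Klf6 was the member lower in wt mice and Cebpa the member lower in N2ΔMy mice, each the 1 member of 9 that passed. In wt, 5.07% of all genes passed as lower and 4.43% as higher, and in N2ΔMy 4.55% and 4.15%. The libraries of treated and Sham mice did not overlap for 3 of the 10 members in wt (Klf4, Klf6 and Klf13) against 21.5% of genes, and for 2 (Klf6 and Klf13) in N2ΔMy against 19.5%.

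Klf6 held 2516, 2744, 3713 and 3783 in wt IMQ and 4161, 5441, 4256 and 5419 in wt Sham. All treated libraries lay below all Sham libraries, with Sham 1.51 times as high (log2 difference -0.61 ± 0.15, limma adjusted p = 0.0212), and the size lay just past the threshold. Without wt Sham replicate 2 or 4, or wt IMQ replicate 1 or 2, the call was lost (log2 differences from -0.55 to -0.50). In N2ΔMy mice it held 3719, 3485, 4054 and 3971 against 4883, 5209, 5416 and 4887, also without overlap, and -0.42 ± 0.08 was under the fold needed (limma adjusted p = 0.00551). The difference between the genotypes was 0.18 ± 0.18 (limma adjusted p = 1).

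Cebpa held 1531, 2379, 1450 and 1708 in N2ΔMy IMQ and 2281, 3841, 3140 and 2699 in N2ΔMy Sham. The 2 groups overlapped, and each treated library lay below its same-numbered Sham library (-0.76 ± 0.19, limma adjusted p = 0.0223). In wt mice it held 1648, 1509, 2042 and 1135 against 1726, 3596, 1886 and 2254, lower in 3 of 4 pairs (-0.55 ± 0.23, limma adjusted p = 0.141). The difference between the genotypes was -0.21 ± 0.33 (limma adjusted p = 1). Leaving out N2ΔMy Sham replicate 2 or 3, or IMQ replicate 1, 3 or 4, took the call away, with log2 differences from -0.75 to -0.63.

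Cebpb in wt held 6024, 6324, 4704 and 2888 after IMQ and 2298, 6824, 1992 and 2813 in Sham. The difference of 0.64 ± 0.36 missed the threshold (limma adjusted p = 0.277) and passed with the replicate block (adjusted p = 0.0438, where 5.82% of genes were higher), but not with the library series as a covariate (adjusted p = 0.0943). In this comparison too, 2 of the 4 same-numbered pairs, replicates 2 and 3, correlated less (r of 0.399 and 0.294) than the treated libraries did with a Sham library of another number (0.430 and 0.340). Without wt Sham replicate 2 it was 1.02 (limma adjusted p = 0.0267), and without all replicates 2 in the blocked fit it was 0.89 (adjusted p = 0.0104). In N2ΔMy it was -0.04 ± 0.43, and the difference between the genotypes of -0.68 ± 0.63 did not pass (limma adjusted p = 1).

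Nr4a1 did not pass after IMQ in either genotype with all 8 libraries, at 0.27 ± 0.14 in wt (limma adjusted p = 0.226) and -0.08 ± 0.28 in N2ΔMy (limma adjusted p = 0.897). In N2ΔMy the library series went opposite ways. It was 1752 and 1675 after IMQ against 2762 and 3270 in Sham in the first series (-0.81, passing with an adjusted p of 0.00611), and 3868 and 3220 against 1802 and 2801 in the second (0.65, not passing, adjusted p = 0.0931), so no within-series relation held over both. Klf2, Klf4 and Klf13 in wt differed by 0.38, 0.19 and 0.24 and lay under the fold needed.

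Neutrophil genes summed higher after IMQ in these sorted cells. A list of 9 summed to 7 to 16 in wt Sham and to 1223 to 4950 in wt IMQ Ly6Chi libraries, and to 1 to 63 and 963 to 5241 in N2ΔMy. S100a8 and S100a9, which monocytes also express, made up nearly all of it, while Ly6g was at 0 in all 8 treated libraries. Of the 16 immediate early and heat shock genes, 15 were tested, and 0 were higher and 5 lower after IMQ in wt and 1 higher and 2 lower in N2ΔMy, with median log2 differences of -0.76 and -0.56. The shares over all genes were 4.43% and 5.07% for wt and 4.15% and 4.55% for N2ΔMy, with medians of 0.01. Their sum went from a mean of 29712 to 20416 in wt and from 28941 to 22293 in N2ΔMy. Of 4 tested dendritic cell genes 2 were lower in each genotype, with medians of -1.05 in both, and the list summed to 253 to 478 after IMQ against at least 775 in Sham in wt and to 288 to 408 against at least 942 in N2ΔMy. Macrophage genes, 6 of them tested, included 1 lower in wt (median 0.55) and, in N2ΔMy, 2 higher and 1 lower (median 0.92). In N2ΔMy 1 of 4 platelet genes was higher (median 1.81) and the 1 tested NK cell gene lower (-2.12), and the mean B cell sum went from 2887 to 1867. The part of these lists in the Klf6, Cebpa and Cebpb differences was not tested.

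Other genes of the same families and of monocyte conversion were taken from lists chosen with earlier results of these data known. Of 17 further Klf and C/EBP genes, 11 were tested. After IMQ 2 were higher and 0 lower in wt and 2 higher and 1 lower in N2ΔMy, with a median log2 difference of -0.28 and -0.29 against 0.01 for all genes, of which 4.43% and 4.15% were higher and 5.07% and 4.55% lower. Klf7 rose by 0.98 in wt and 0.85 in N2ΔMy (limma adjusted p = 0.000828 and 0.00377), and Cebpe, a granulocyte factor, from a mean of 11.8 to 36.5 in wt and 11.2 to 52.5 in N2ΔMy. Between subsets 1 was higher and 1 lower in each genotype, with Ddit3, a stress-induced C/EBP relative, at 1.20 in wt and Cebpe at -2.12, beside shares over all genes of 11.9% higher and 12.7% lower for wt and 9.01% and 8.38% for N2ΔMy. None passed between genotypes, and with the replicate block 1 did, Cebpe, which was higher in N2ΔMy Ly6Clo (1.66, adjusted p = 0.0361).

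Of 18 further genes of monocyte conversion, 16 were tested, and 5 were higher and 4 lower in wt Ly6Clo than in wt Ly6Chi (median 0.24, against -0.01 for all genes, of which 11.9% were higher and 12.7% lower). Ets1, a lymphoid and endothelial ETS factor, and Tcf7l2, a Wnt pathway factor, rose by 6.14 and 3.10, and Notch1 and Irf4 fell by 2.18 and 1.77 (limma adjusted p from 2.1e-06 to 0.000307). In N2ΔMy 4 were higher and 3 lower (median 0.16), where 9.01% and 8.38% of all genes were. Between genotypes in Ly6Clo the design fixed the direction of Notch2, the deleted gene, which was lower by 0.72 on the log2 scale. Of the other 15 tested, 2 were higher and 2 lower where 3.12% of genes were higher and 1.67% lower, with a list median of -0.11 against -0.00346 for all genes. Irf4 and Notch1 were higher by 2.05 and 1.16, and Hes1, a Notch target gene, was lower by 1.18 and Tcf7l2 by 0.67, beside the -0.86 of Nr4a1. After IMQ, 1 of 16 was higher and 2 were lower in wt, and 0 and 1 in N2ΔMy, beside the shares of all genes given above for IMQ.

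Some members went together or opposite in their levels over the 24 libraries, which share 6 groups and 2 library series, and others did neither. After subtraction of each series mean, Pearson's r of log2(value + 1) was 0.95 between Nr4a1 and Klf4, -0.85 between Nr4a1 and Cebpa, 0.92 between Cebpa and Cebpd and 0.86 between Cebpb and Klf2. Other pairs were weak, among them Nr4a1 with Klf6 (0.04) and Klf13 (-0.06), Cebpb with Klf6 (0.06) and Cebpa with Cebpb (-0.19). The 3 genes most like Nr4a1 were Bcl6, Treml4 and Bcl2 (r from 0.969 to 0.974), and those most like Klf4 were Cd274, Heg1 and Pik3ap1 (r from 0.960 to 0.961). Cebpa was nearest to Irf2bp2, Siah2 and Atp13a3 (r from 0.944 to 0.956), Cebpb to Otulin, Akirin2 and Csnk1g3 (r from 0.884 to 0.922), and Klf6 to Rhob, Fam46a and Cd83 (r from 0.866 to 0.897). These values describe the libraries and carry no test.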

How the data were processed

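Monocyte RNA was made into stranded total RNA libraries and sequenced as 75-base single reads. Per the submitters' processing notes, Trim Galore 0.4.4 and STAR 2.5.3a were used on GRCm38.p6 with GENCODE annotation. The authors deposited counts normalized with DESeq2 and rounded to whole numbers, so each value was handled as a score and not as a raw count. Columns of the authors' own comparisons (log2 fold changes, standard errors, Wald statistics, p-values) were also deposited and were not used.

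limma 3.58.1 (lmFit, eBayes with trend) in R 4.3.3 was run on log2(value + 1) for genes at 50 or more in at least 1 library, on the 8 libraries of a comparison or the 16 of an interaction, and was tested on simulated data. The planned test for raw counts did not apply to normalized values. Since a fold change is on the log2(value + 1) scale, it understates low genes. Single members and ratios were tested by exact permutation of 70 splits. Same-numbered libraries correlated in their deviations from group means in every pair (r from 0.160 to 0.619), so the numbers were taken as pairs, although in 6 of 28 pairs a library of another number correlated more. Each number lies in 1 library series, so this check does not separate number from series. The animals behind the libraries are not given in the sources used here. All members were named, and from each list at most 4 called genes. The members and lists were chosen with earlier results of these data known. Alternatives were other pseudocounts, filters, scalings, fits, library series and left-out libraries. Promoters came from RefSeq. A marker gene each of the Ly6Chi and B cell lists is not reported here and was left out of the sums.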

Additional observations from a re-analysis of the deposited data

Results flagged for a closer look

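Cebpb in wt Ly6Chi Sham replicate 2 was at 6824 normalized counts, far above the other 3 libraries of its group (1992 to 2813). Klf2 in N2ΔMy Ly6Chi IMQ replicate 1 was at 4436, below the other 3 (6025 to 6141). Both were found by comparing the gap to the nearest library with the range of the group over 60 sets of 4 libraries, and chance gives about 1 such library in 20 sets.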

How the results depend on the processing

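The number of members past the threshold was recomputed under each alternative. For IMQ against Sham in wt, 1 member (Klf6) became 0 with no filter on low values, quantile normalization, 75th percentile scaling, limma without the trend and the second library series only, and 2 with the replicate block. With the block but without replicate 2, chosen after seeing the data, Klf6 was lost (-0.48, under the fold needed) and Cebpb passed. Leaving out single libraries gave 0 to 1. In N2ΔMy the 1 member (Cebpa) became 0 with no filter and without the trend, and 0 to 1 without single libraries. In the first series Cebpa was lost (-0.63, adjusted p = 0.234) and Nr4a1 passed in its place (-0.81, adjusted p = 0.00611). Between genotypes in Ly6Clo, 1 (Nr4a1) became 0 with no filter (28578 genes tested, adjusted p = 0.091) and in the second series, 2 with all 24 libraries, with series as a covariate and with the replicate block (also without replicate 2, chosen after seeing the data), and 4 in the first series. Without single libraries it was 1 to 2, with 2 when N2ΔMy replicate 3 was left out. Between genotypes in Ly6Chi IMQ, 0 became 1 (Nr4a1) with the replicate block, the same without replicate 2, and the series covariate. The number between wt subsets was 4 without any single library, 5 with the replicate block (Cebpb gained) and 6 in the second series (Cebpb and Klf2 gained), and the 3 in N2ΔMy ranged from 2 to 4 over all alternatives. There Cebpd was lost with no filter (adjusted p = 0.210), without the trend (0.0757) and in the first series (-0.53, adjusted p = 0.319), where Klf2 and Nr4a2 (2.07, adjusted p = 0.0238) passed. Cebpa passed with quantile normalization, 75th percentile scaling, all 24 libraries, the series covariate, the second series and the block, also without replicate 2 (adjusted p from 0.000601 to 0.0439). The causes of these changes were not tested.

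The Nr4a1 difference after IMQ in N2ΔMy, -0.08, became 0.65 in the second series and 0.22 with the replicate block without replicate 2, and ran from -0.30 to 0.10 without single libraries. Its genotype by subset difference of 0.14 became -0.13 in the second series and ran from -0.045 to 0.36. Of these, none passed the test, while the first series alone did for the difference after IMQ, as given above.

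Over all genes, 537 passed between genotypes in Ly6Clo, against 939 with the replicate block, 830 with the series covariate, 215 with no filter and 180 in the second series. In Ly6Chi IMQ 3 passed, against 54 with the block, 46 with the block without replicate 2, 29 with the covariate, 15 with all 24 libraries and 8 with no filter, and 0 or 1 without the trend, in the second series and without most single libraries. In Ly6Chi Sham 2 passed, against 7 with no filter and 1 in several other settings. The subset interaction gave 116, against 271 with the block, 210 with the covariate, 18 in the second series and 75 without wt Ly6Chi IMQ replicate 2, and IMQ in wt gave 1066, against 592 in the second series. The treatment interaction gave 0, against 1 with no filter. Of the conversion genes in Ly6Clo between genotypes, 3 were higher and 4 lower with the block, Notch2 among the latter, and of the immediate early genes after IMQ in wt, 1 and 8. With the block the 5 calls of members were gained, those of Cebpb, Cebpa and Nr4a1 given above, and none was lost. The 8-library design and the depth limit what small differences can be resolved.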
